A study of Homo sapiens with 10 samples.

Results

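The region described here is an 800 kb window of human chromosome 10 around KLF6, from 3600000 to 4400000 in build hg19, and its members are the peaks of 8 deposited lists that overlap it by at least 1 bp. KLF6 itself was placed at 3818188 to 3827473, and its start site was taken as 3827473 because the gene lies on the minus strand, so upstream means higher coordinates. The window held 376 of the 543439 peaks in the 8 lists. Peaks that overlapped one another across the 6 BRD9 lists were joined into regions, which gave 79 BRD9 regions in the window of 119939 in all. The 2 SMARCB1 lists were joined in the same way, and 66 of 105 joined regions of the window (62.9%) held a peak of both replicates, against 49% of all joined SMARCB1 regions, which makes 87773 in all. The window was chosen because it holds one of the highest BRD9 regions found after SMARCB1 induction and not in the controls. Differences between the BRD9 groups inside it are therefore given as a description, with no test.

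All samples were G401 cells, a rhabdoid tumour line with the genotype SMARCB1(-/-), so cells of every group lack their own SMARCB1. Doxycycline induced either GFP, the control, or SMARCB1, and protein positions were mapped by CUT&RUN: a nuclease tethered to the antibody cuts and frees the DNA next to the protein, which is then sequenced. The groups were 3 replicates of BRD9 after GFP induction, 3 of BRD9 after SMARCB1 induction and 2 of SMARCB1 after SMARCB1 induction. The other 2 of the 10 samples, SMARCB1 after GFP induction and IgG after SMARCB1 induction, were not analysed here. The labels do not say whether replicates came from separate cultures, and all come from 1 cell line. Library sizes were 10.2 to 12.1 M reads for BRD9 after GFP induction, 10.1 to 13.9 M for BRD9 after SMARCB1 induction, and 64.2 and 59.7 M for SMARCB1.

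KLF6 encodes a zinc finger transcription factor of the Krüppel-like family, which binds GC-rich promoter sequence and has been studied as a growth-restraining factor in several tumour types. SMARCB1 is a core subunit of the canonical and polybromo forms of SWI/SNF, complexes that move nucleosomes and act largely at enhancers. BRD9 is a bromodomain subunit of the non-canonical form, which has no SMARCB1. RNA was not analysed here, so the level of KLF6 is unknown.

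The promoter of KLF6 is shown because regions of both proteins covered the start site of the gene. The sequence is that of RefSeq in GRCh38.p14, chr10:3785160-3785459, minus strand, written 5′ to 3′, with 250 bases before the start and 50 after it. It was matched by gene symbol and was not placed on hg19. Capitals mark every match to the motifs searched.
KLF6 promoter: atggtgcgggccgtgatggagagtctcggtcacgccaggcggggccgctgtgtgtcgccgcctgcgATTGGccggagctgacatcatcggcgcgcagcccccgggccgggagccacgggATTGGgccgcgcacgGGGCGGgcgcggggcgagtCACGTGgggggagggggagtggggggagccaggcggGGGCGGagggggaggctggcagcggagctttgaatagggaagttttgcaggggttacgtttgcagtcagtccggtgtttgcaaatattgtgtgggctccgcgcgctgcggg

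Both strands were searched for 6 motifs. The E-box CACGTG, the palindrome read by basic helix-loop-helix factors, occurred once, 97 bases before the start, and 7.26% of 35116 promoters of this length hold it. CCAAT, the box bound by NF-Y, occurred in 2 places as ATTGG on the printed strand, against 34.6% of promoters with at least 1 match. The GC box GGGCGG, which SP and KLF proteins bind, also occurred in 2 places, and 45.0% of promoters hold one. None of the matches overlapped another. The letters of the AP-1 site TGANTCA (7.71% of promoters), the cAMP response element TGACGTCA (1.85%) and the TATA box TATAAA (11.5%) were not in this window. The sequence was 70.7% G or C, against a median of 58.7%, and held 33 CG dinucleotides, against a median of 14.

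In the RefSeq order of GRCh38, the 5 nearest annotated genes on each side of KLF6 are all long non-coding RNA genes, among them LOC105376363 next to its end and LOC105376364 and LINC02639 beyond its start. They were not placed on hg19, and no BRD9 or SMARCB1 region was assigned to them.

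BRD9 had almost no called peaks in the window in control cells and many after SMARCB1 induction. The GFP lists had 1, 0 and 3 peaks in the window, and the lists of SMARCB1-induced cells had 70, 61 and 53. The groups did not overlap, with means of 1.33 ± 1.53 and 61.3 ± 8.50 peaks (SD, n = 3 each). Over the genome the lists were of like size, with 45673, 35252 and 38825 peaks after GFP induction and 46448, 39949 and 42285 after SMARCB1 induction. The window thus held 0.00219, 0 and 0.00773% of the peaks of the GFP lists and 0.151, 0.153 and 0.125% of those of the others. Peaks covered 0.655, 0 and 1.48 kb in the GFP lists and 77.4, 70.7 and 73.2 kb in the others. Covered length differed less among the SMARCB1-induced lists than the number of peaks did: replicate 3 covered nearly as much as replicate 1 with 53 peaks against 70. Reads in these peaks came to 1.98, 0 and 5.09 per M library reads after GFP induction, and to 368, 390.0 and 347 per M after SMARCB1 induction. A list gives reads at its own peaks alone, so a place without a peak is not shown to lack BRD9.

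**Figure D1:**
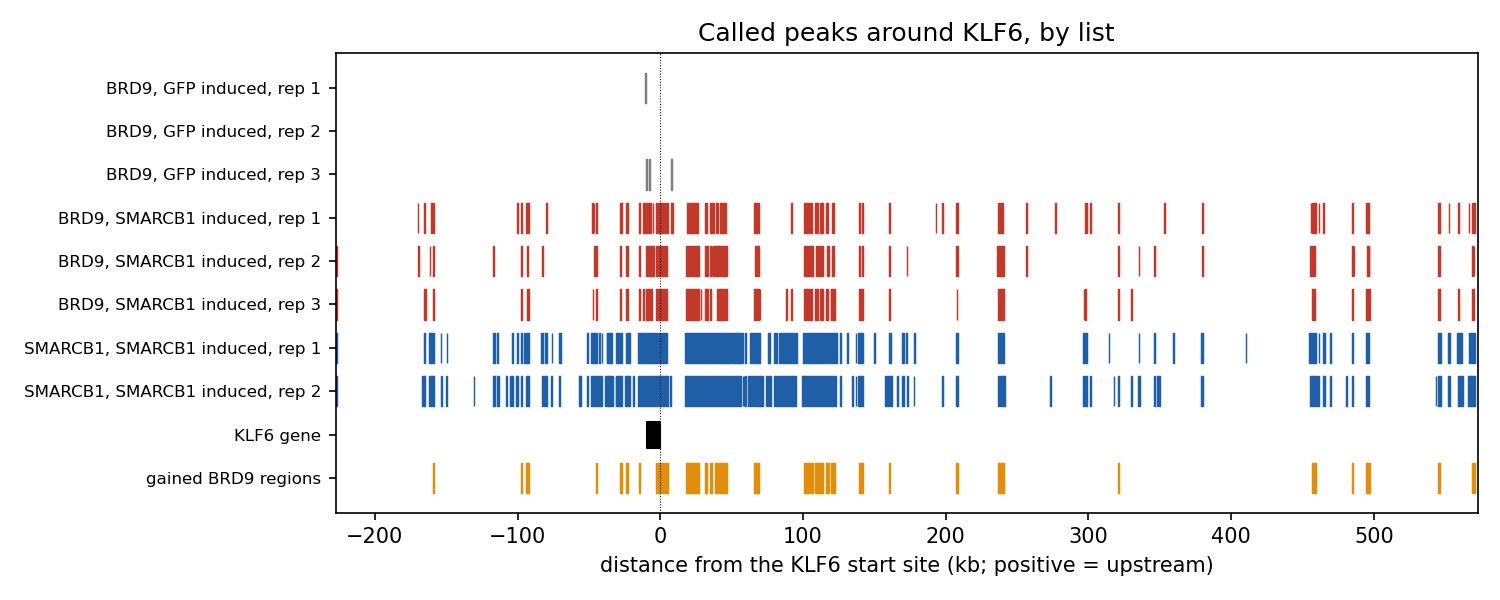
Called peaks of the 8 lists along the window, by distance from the KLF6 start site in kb (positive values are upstream); rows are single lists, the black bar is the gene, and orange bars are the 34 gained BRD9 regions, with line thickness widening the narrowest bars. The 3 BRD9 rows of GFP-induced cells hold 1, 0 and 3 peaks, and the 3 rows of SMARCB1-induced cells hold 70, 61 and 53.

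Gained regions are those with a peak in each of the 3 BRD9 lists of SMARCB1-induced cells and in no GFP list, and lost regions are the reverse. Of the 79 regions, 34 (43.0%) were gained, against 6.85% of all BRD9 regions. None was lost (1.04% of all regions) and none was called in all 6 lists (4.67%). As the window was chosen on this contrast, nothing is read from these shares. At 42.5 gained regions per Mb the window compared with 3.02 per Mb over the rest of chromosome 10 and 2.68 per Mb over all chromosomes. Of the remaining regions, 28 had a peak in 1 list of SMARCB1-induced cells, 15 had peaks in 2 of them, and 2 also had a GFP peak, against 61.6% of all regions with at least 1 GFP peak.

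Median width and score also differed by the number of lists that called a region. Both grow by construction with that number, since width joins the peaks of all lists and the score is the best of them. Median widths were 441 bp with 1 list, 625 bp with 2 and 1742 bp with 3, and the medians of the best score, the deposited −log10 false discovery rate, were 6.50, 8.61 and 21.6. Replicate 1 supplied 13 of the 28 regions of a single list, replicate 2 supplied 9 and replicate 3 supplied 6.

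All 4 GFP peaks lay within 10 kb of the gene. Replicate 1 had one from 3817051 to 3817706, beyond the 3′ end of KLF6, with 21 reads and 3.02 RPKM, reads per kb of peak and M library reads. Replicate 3 had one at nearly the same place, from 3817173 to 3817929, with 27 reads and 3.50 RPKM. Each list also records reads of a control library. In the BRD9 lists, those of GFP-induced cells included, it had 23.1 M reads, and which sample it was is not given in the sources used here. It had 26 and 35 reads in these intervals, so the authors' unscaled log2 fold differences there were -0.30 and -0.36. Replicate 3 also had a peak inside the gene, from 3819824 to 3820134 (3.47 RPKM), and one 7.61 kb upstream of the start, from 3835087 to 3835501 (3.31 RPKM). These scores were 4.36 to 5.56, close to the lowest values in the lists, and GFP replicate 2 had no peak in the window.

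At the gene, BRD9 of SMARCB1-induced cells lay over the 3′ part, the 5′ part and the start site. The region over the 3′ part, from 3816601 to 3821728, was the one that GFP replicates 1 and 3 shared. Its density was 4.60, 5.36 and 4.36 RPKM after SMARCB1 induction and 3.02 and 3.49 RPKM in those GFP lists, over called stretches of 4517, 4339 and 4491 bp against 655 and 1066 bp. Each SMARCB1-induced list was thus above both GFP lists, in longer peaks. Nearer the start, from 3824301 to 3826909, 0.564 kb inside the gene from the start, a gained region had 5.32, 6.36 and 5.84 RPKM (5.84 ± 0.521, SD, n = 3).

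The gained region from 3827176 to 3830332 covered the start site of KLF6 and was the second densest of the 34. The lists of SMARCB1-induced cells gave 6.40, 7.66 and 6.88 RPKM there, from 219, 233 and 280 reads, a mean of 6.98 ± 0.638 RPKM (SD, n = 3). Replicate 1 divided it into a weaker peak on the start, from 3827330 to 3827781 (4.20 RPKM), and a stronger one upstream, from 3827963 to 3830332 (6.82 RPKM). Replicates 2 and 3 each held 1 peak from 3827176, and the peak tops of all lists, taking the higher-scoring peak of replicate 1, lay at 3828891, 3828780 and 3828888, upstream of the start.

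The joined SMARCB1 regions had a different outline there, though BRD9 replicate 1 likewise had a separate, weaker peak on the start. A region of 12450 bp, from 3814176 to 3826626, spanned nearly the whole gene, with 2.53 and 3.17 RPKM (2.85 ± 0.450, SD, n = 2). The start site itself lay in a region of 475 bp, from 3827026 to 3827501, with 1.34 RPKM in both lists. The peak of replicate 1 covered the start and that of replicate 2 ended at 3827426, inside the gene. Another region began 128 bp upstream and ran from 3827601 to 3832676, with 2.05 and 2.03 RPKM. Among all SMARCB1 regions the one over the gene body was at percentile 99.0 by density and 98.9 by width. The one on the start was at percentiles 26.6 and 5.24, and the one upstream at 91.6 and 94.0. The gene body and upstream regions were thus dense and wide, and the start between them was narrow and thin.

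**Figure D2:**
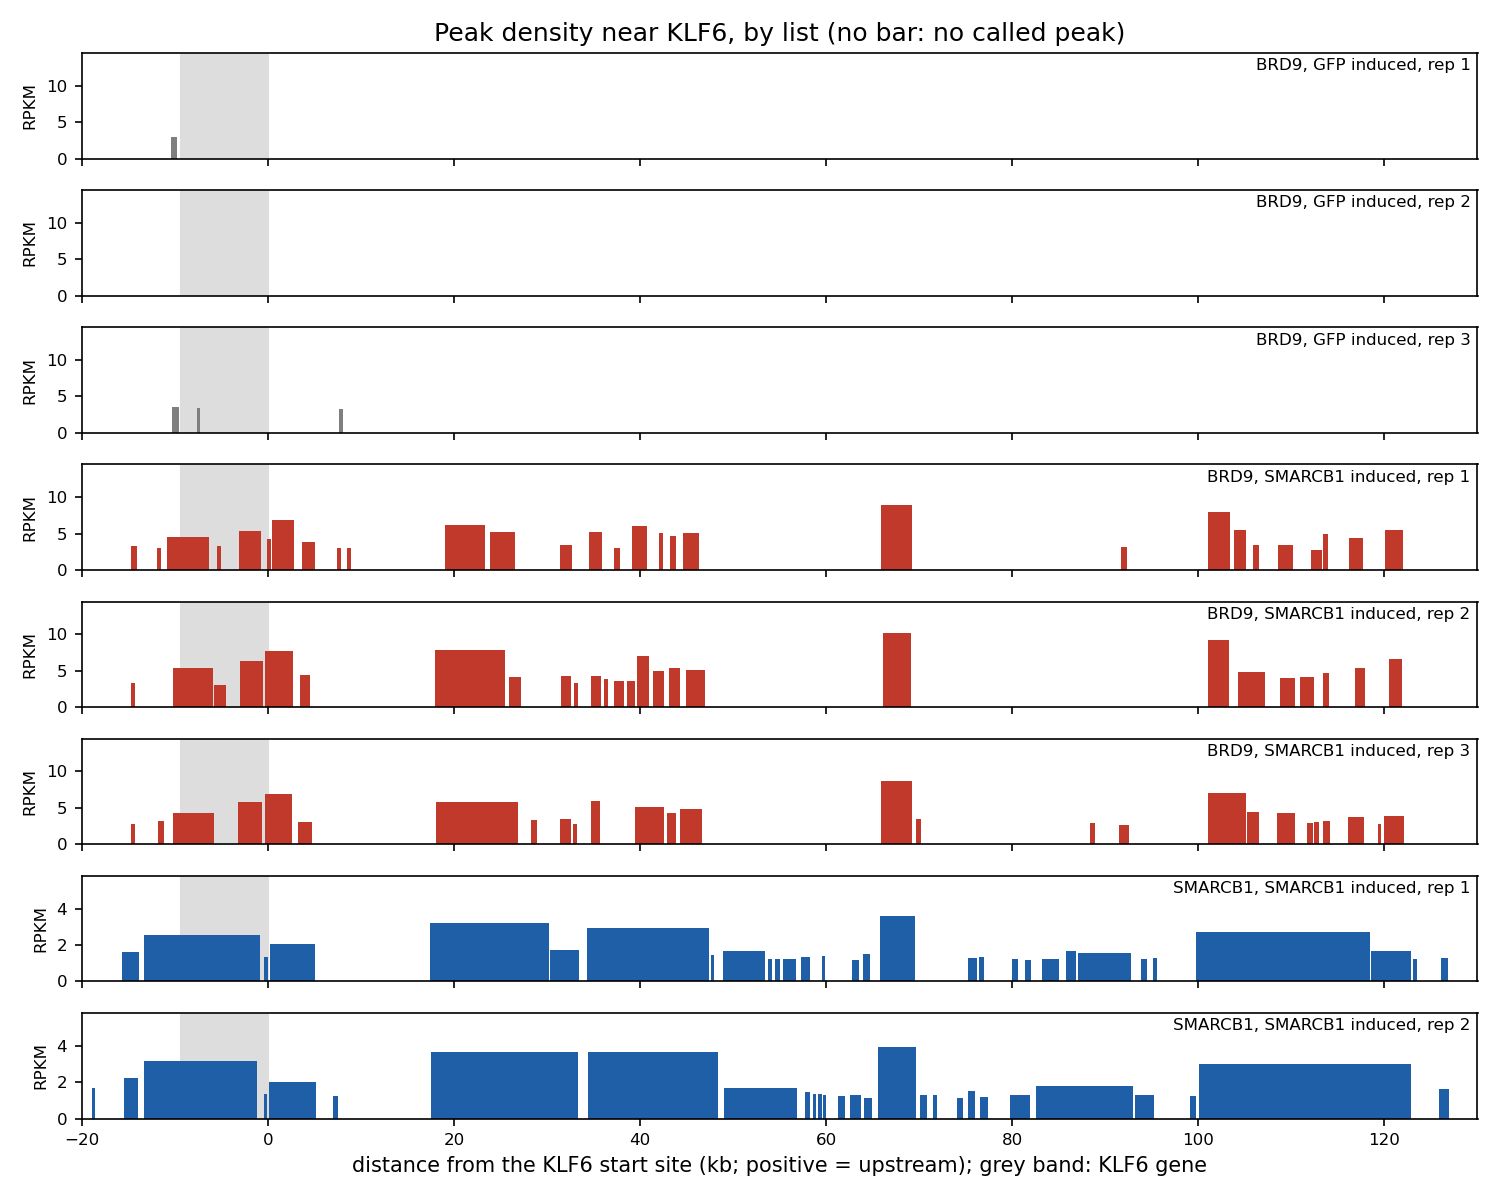
Density of each called peak (RPKM, bar height) by list, from below the gene to beyond 120 kb upstream of the KLF6 start; bar width is peak width, the grey band is the gene, and the SMARCB1 panels have a smaller scale. The 3 panels of BRD9 after SMARCB1 induction share blocks at the gene, from 18 kb, at 65.9 kb and from 101 kb; the GFP panels hold 1, 0 and 3 bars, all within 10 kb of the gene.

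Just upstream, 3.28 kb from the start, a weaker gained region ran from 3830750 to 3832549, with 3.90, 4.39 and 3.05 RPKM (3.78 ± 0.682, SD, n = 3). It lay wholly in the SMARCB1 region that began 128 bp upstream of the start. The next gained region began 18 kb from the start. This region, from 3845452 to 3854674, was 9222 bp wide, the widest of the 8073 gained regions on chromosomes. The 3 lists gave 5.78, 7.29 and 5.85 RPKM over it, with a mean of 6.31 ± 0.853 (SD, n = 3). Replicate 3 called it as 1 peak of 8825 bp, while replicates 1 and 2 called 2 peaks each. Its width therefore joins peaks that single lists separate. SMARCB1 covered all of it in a region of 16025 bp, from 3844876 to 3860901, at 3.27 ± 0.516 RPKM (SD, n = 2).

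A second SMARCB1 region followed within 1 kb, from 3861776 to 3875826, 14050 bp wide at 3.26 ± 0.536 RPKM (SD, n = 2). It held 4 gained BRD9 regions. The densest of them, from 3866097 to 3870040, had 5.85, 5.36 and 5.08 RPKM (5.43 ± 0.389, SD, n = 3). The control library was also comparatively dense there, at 1.53 RPKM, and at 1.70 RPKM in the gained region from 3862026 to 3863415, the highest of the 34. Its part in these calls was not tested.

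The leading gained region lay 65.9 kb upstream of the start, from 3893351 to 3896730, with no other gained region between 3874455 and 3928458. A BRD9 peak of replicate 3 alone, from 3897178 to 3897626 (3.53 RPKM), followed it closely. The 3 lists of SMARCB1-induced cells gave 8.87, 10.2 and 8.76 RPKM, from at least 318 reads each, with a mean of 9.29 ± 0.829 RPKM (SD, n = 3). Every list called it as 1 peak, of 3379, 3061 and 3295 bp. By mean density it was number 4 of the 8073 gained regions on chromosomes, the value it was chosen for. The control library had 86, 80 and 84 reads in the same intervals, 1.10, 1.13 and 1.10 RPKM, so the sample was 8.06, 9.07 and 7.94 times as dense as that library. These ratios are not comparisons with the GFP-induced cells.

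No GFP list had a peak in it. Other peaks of like width, 2500 to 4500 bp, numbered between 443 and 1093 in each GFP list. Their lowest densities were 2.56, 2.49 and 2.62 RPKM and their 5th percentiles 2.97, 3.14 and 3.05 RPKM, and 93.4, 63.4 and 91.9% of them were less dense than the mean of the leading region. Each GFP list thus held peaks of this width at lower density elsewhere. Control density at those peaks was not set against that of the leading region. Whether a weaker BRD9 signal would be called at this place was not tested.

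SMARCB1 marked the same place with its densest region of the window. It ran from 3893051 to 3897176 with 3.61 and 3.94 RPKM, from 870 and 970 reads, a mean of 3.78 ± 0.234 RPKM (SD, n = 2). The control of the SMARCB1 lists had 58 and 60 reads there, 0.312 and 0.293 RPKM. This density was number 79 of all 87773 SMARCB1 regions, while its width of 4125 bp was number 7649. Peak tops of BRD9 lay at 3894864, 3894885 and 3894669, and those of SMARCB1 at 3894467 and 3894464. The tops of SMARCB1 differed by 3 bp and those of BRD9 by 216 bp, and the BRD9 mean lay 340.5 bp farther from KLF6.

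Between the dense blocks SMARCB1 continued at lower density with little BRD9. From 3876401 to 3884351, 48.9 kb upstream, a SMARCB1 region of 7950 bp had 1.53 and 1.67 RPKM and no BRD9 peak in any of the 6 lists. It was the widest SMARCB1 region of the window without BRD9. Another, from 3909976 to 3920476, was 10500 bp wide with 1.49 and 1.79 RPKM and held 2 BRD9 regions, neither called in all 3 lists of SMARCB1-induced cells. Their densities were at percentiles 69.0 and 72.6 of all SMARCB1 regions, well below those of the dense blocks.

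The widest SMARCB1 region lay beyond, from 3926626 to 3950376, 23750 bp wide at 2.51 and 2.94 RPKM (2.73 ± 0.301, SD, n = 2). It held 7 BRD9 regions, of which 6 were gained and 1 was called in replicate 3 alone. The one nearest KLF6, from 3928458 to 3934632, was the densest at 6.58, 6.79 and 6.37 RPKM (6.58 ± 0.207, SD, n = 3), and its 6174 bp placed it number 9 by width of all gained regions on chromosomes. The 5 others were 761 to 2357 bp wide and had means of 3.29 to 5.30 RPKM. Here BRD9 was called in separate regions under a SMARCB1 signal that replicate 2 called almost without a break, as 1 peak of 22875 bp. The SMARCB1 libraries were deeper, at 64.2 and 59.7 M reads against 10.1 to 13.9 M for BRD9. The part of depth in this contrast was not tested.

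Farther upstream the gained regions were more scattered. A compact one, from 3966449 to 3967151, 139 kb from the start, had 6.46, 6.32 and 5.51 RPKM (6.10 ± 0.517, SD, n = 3) in only 702 bp. Another, from 4283726 to 4286676, 456 kb from the start, had 5.89, 6.34 and 6.05 RPKM (6.10 ± 0.227, SD, n = 3) and lay in a SMARCB1 region at 2.98 ± 0.413 RPKM (SD, n = 2). The one gained region without a SMARCB1 region of both replicates ran from 4148101 to 4148866, with 4.20, 3.35 and 2.64 RPKM.

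**Figure D3:**
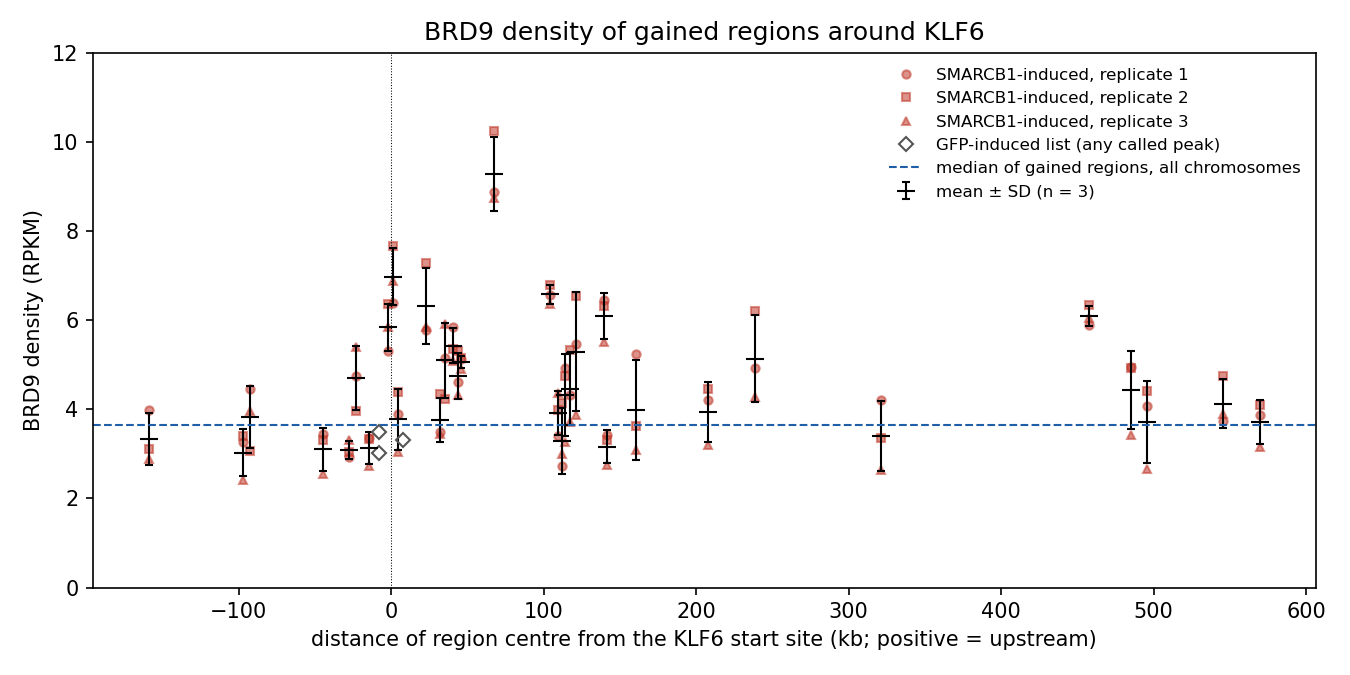
BRD9 density (RPKM) of the 34 gained regions by distance of their centre from the KLF6 start in kb; red symbols are the 3 lists of SMARCB1-induced cells, black bars the mean ± SD, open diamonds the GFP lists in the 2 other BRD9 regions where they had a peak, and the dashed line the median of all gained regions on chromosomes, 3.64 RPKM. Of the 8 densest regions, 7 lie between the gene and 139 kb upstream, with the leading one at 9.29 RPKM, and 1 lies at 456 kb.

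By position, 25 of the 34 gained regions lay upstream of the start, 1 covered it and 8 lay on the side of the gene body and beyond. The first 100 kb upstream held 8 gained regions, which with the region on the start covered 27.9% of that stretch. From 100 to 300 kb there were 11, covering 11.8%, and beyond 300 kb there were 6, covering 3.98%. On the other side of the gene, over 218 kb, 7 gained regions covered 2.96%. Median densities in these zones were 5.08, 4.32, 3.92 and 3.14 RPKM. SMARCB1 regions covered 95.7% of the gene body, 68.65% of the first 100 kb upstream, 21.4% from 100 to 300 kb, 10.4% beyond and 20.3% below the gene. Both proteins were thus most extensive at the gene and in the first 100 kb upstream.

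The upper edge of the window was not an edge of this pattern. The last BRD9 region inside the upper limit, from 4396085 to 4398245, was gained at 3.71 RPKM, and the next one, 0.826 kb outside, was gained at 3.35 RPKM. At the lower limit the first region inside had peaks in 2 lists (3.01 RPKM) and the nearest one outside, 9.17 kb away, had a peak in 1 list (3.08 RPKM). Neither was gained. The nearest gained region below the window lay 18.3 kb outside, at 3.28 RPKM, and the first gained one inside began at 3668151.

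The gained regions of the window had a median density of 4.22 RPKM and a median width of 1742 bp, against 3.64 RPKM and 1082 bp for all gained regions on chromosomes. In the window, 26 of the 34 were denser and 24 wider than the medians of all gained regions. The coefficient of variation among the 3 lists had a median of 14.3% and was at most 28.1%. Control density at the 34 regions ranged from 0.160 to 1.70 RPKM with a median of 0.785, against 0.939 for all gained regions and 0.332 for an even spread over the chromosomes. The part of the control signal in the calls was not tested.

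SMARCB1 regions lay under nearly all gained BRD9 regions of the window, 33 of 34 (97.1%, 95% Wilson interval 85.1 to 99.5%, counting error only), against 95.9% of all gained regions. Wilson intervals here take the regions as independent, though neighbouring ones share SMARCB1 regions and libraries. Of all 79 BRD9 regions 66 (83.5%, 73.9 to 90.1%) overlapped one, against 37.8% over the genome. These sets differ in make-up, since 61.6% of all BRD9 regions held a GFP peak and only 2 of the 79 did. Among peaks of the 3 lists of SMARCB1-induced cells, 85.7, 93.4 and 94.3% of those in the window overlapped one. Over the genome the shares for these lists were 57.1, 65.3 and 65.1%. In base pairs, between 91.8 and 96.8% of the BRD9 peak length in the window was inside the SMARCB1 peaks of a list, against 55.8 to 69.6% over all peaks of the same pairs of lists. SMARCB1 regions took up 24.1% of the window against 5.82% of all chromosomes, and the window was chosen for gained BRD9. Nothing is therefore read from its higher shares at SMARCB1. The match of lists with one another is given as a description as well. Gained regions, for which the window was chosen, have a peak in all 3 BRD9 lists of SMARCB1-induced cells by definition. The Jaccard index, the shared over the combined length, was 0.556 to 0.627 among the 3 BRD9 lists of SMARCB1-induced cells, against 0.396 to 0.428 over the genome. It was 0.753 against 0.594 for the SMARCB1 pair.

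Seen from SMARCB1, 23 of its 66 regions (34.8%) held a gained BRD9 region, against 7.84% of all SMARCB1 regions. This difference comes with the choice of the window and is given as a description. A further 17 SMARCB1 regions held another BRD9 region, so that 40 of 66 held any, against 36.9% over the genome, and 26 held none. Regions with a gained BRD9 region had a median width of 3525 bp and a median SMARCB1 density of 2.23 RPKM. Those with another BRD9 region had medians of 1350 bp and 1.58 RPKM, and those without BRD9 had 962.5 bp and 1.34 RPKM. Over the genome the same 3 classes had medians of 3080, 1750 and 990.0 bp and of 1.97, 1.62 and 1.39 RPKM, so the order in the window was that of the whole genome.

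The densest SMARCB1 regions of the window were those with gained BRD9. The 13 densest in a row all held a gained BRD9 region, and the next, from 3726951 to 3727826 at 2.07 RPKM, held a BRD9 region that was not gained. When all SMARCB1 regions were divided into quartiles by density, 23 of the window fell in the densest quartile, above 1.67 RPKM, and 18 of them (78.3%) held a gained BRD9 region. Genome-wide that share was 24.1%. In the other quartiles, from the next densest downward, 3 of 14, 2 of 13 and 0 of 16 did, against 4.84%, 1.48% and 0.943% over the genome. The window was chosen for gained BRD9, so nothing is read from its higher shares. In width, 5 regions, 7.58% of the 66, reached 10 kb or more, against 1.76% of all, and 4 of the 5 held gained BRD9 regions, 13 of the 34 by largest overlap. Over the genome 722 of the 1542 SMARCB1 regions of this width held one.

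**Figure D4:**
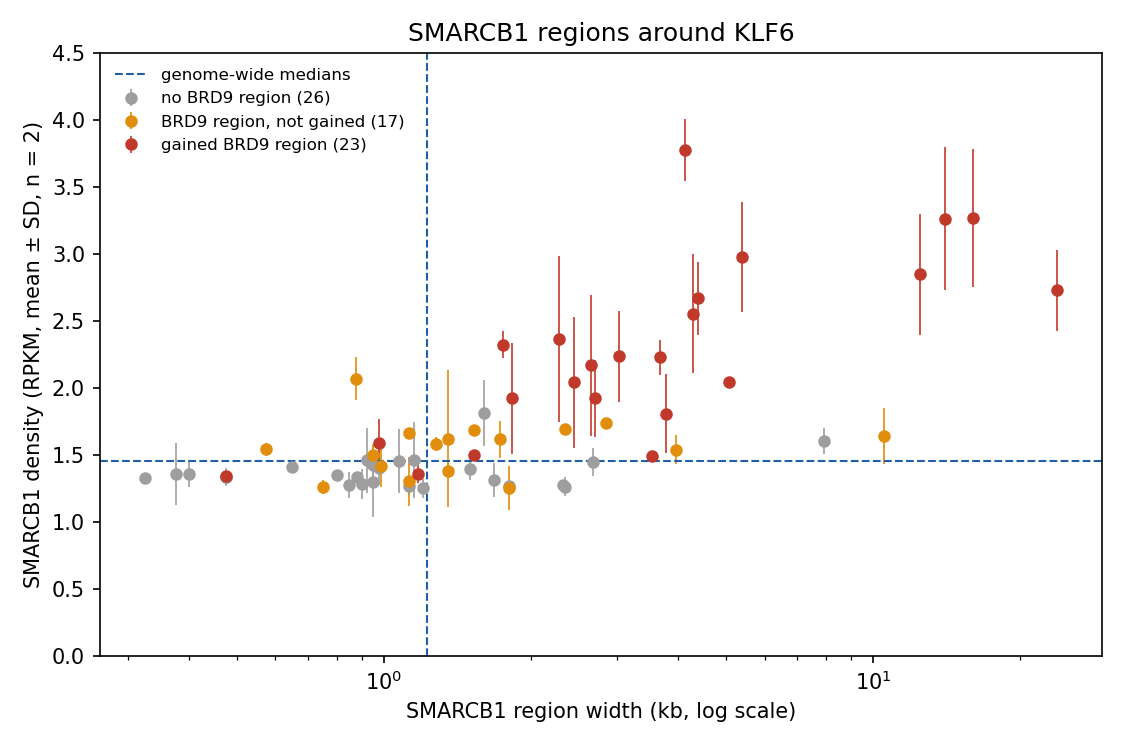
Width (kb, log scale) and density (RPKM, mean ± SD of 2 replicates) of the 66 SMARCB1 regions of the window, coloured by the BRD9 region they hold; dashed lines are the medians of all SMARCB1 regions, 1225 bp and 1.46 RPKM. Red points, with gained BRD9, include the densest and the widest region, at 3.78 RPKM and 23750 bp, and reach down to 1.34 RPKM and 475 bp. Regions with another BRD9 region are up to 10500 bp wide and those without BRD9 up to 7950 bp.

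Across the 33 gained regions on a SMARCB1 region, BRD9 density and SMARCB1 density had a Spearman correlation of 0.477 and a Pearson correlation of 0.522. For BRD9 density and the width of the SMARCB1 region they were 0.423 and 0.169. BRD9 density and the width of the BRD9 region had 0.617 and 0.566, and BRD9 density and control density had 0.343 and 0.335. These points are not independent, since neighbouring BRD9 regions share a SMARCB1 region and all share the same libraries, and they are given as a description.

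Peak tops could be set against each other at 12 gained regions where each list called 1 peak and the SMARCB1 region was under 10 kb. The BRD9 mean top was between 8.67 and 2184 bp from the SMARCB1 mean top, with a median of 142 bp, and in 7 of the 12 the distance was at most 250 bp. The highest value, from 3830750 to 3832549, was taken to SMARCB1 tops at 3829398 and 3829394, outside that BRD9 region. The lowest value, from 3733742 to 3735426, comes from averaging. SMARCB1 tops there were 538 bp apart, at 3734822 and 3734284, on either side of the BRD9 mean. The next lowest, 9.67 bp from 3987576 to 3988648, had SMARCB1 tops 10 bp apart. Tops of the 3 BRD9 lists spanned a median of 203.5 bp at these regions and those of the SMARCB1 pair a median of 29 bp.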

How the data were processed

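CUT&RUN peak lists of 8 samples were used, grouped by title. Each list was called per sample against a control library, of 23.1 M reads in the BRD9 lists, which do not name it, and of 49.6 M in the SMARCB1 lists, which name GFP as negative control. The authors deposited, per the file headers, raw read counts of sample and control per peak, RPKM values, a log2 fold difference of the counts and the −log10 of the false discovery rate. The submitters' processing notes list BWA 0.7.12-r1039, SAMtools, bedtools, DiffBind and edgeR and build hg19; the peak caller is not given in the sources used here. SMARCB1 lists name hg19; the BRD9 lists name no build.

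Library sizes were recovered from counts and RPKM. Regions were unions of peaks sharing at least 1 bp, and density was reads over the called length. No test was run. Members and lists were chosen with earlier results of these data known. Regions described singly were the 8 densest gained, those at the gene, and the 5 densest and widest SMARCB1 regions; others named were chosen after their values were seen. Alternatives covered score, peak number, window, overlap, call rule, control and replicates. On simulated lists 1000 of 1000 planted regions were recovered. Those regions stood far apart and had a peak in every list of their group, unlike many regions of the window. Their recovery therefore checks the computation only. Annotation of hg19 was not used here, so the KLF family list was not counted. Python 3.11.15, numpy 2.4.6, pandas 2.3.3, scipy 1.17.1 and matplotlib 3.10.9 were used.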

Additional observations from a re-analysis of the deposited data

How the results depend on the processing

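Of 103 recomputed values, 93 stayed within their spread or within 1.5 times the count, 10 moved and none changed direction. The differences in BRD9 peak number (60.0) and covered length (73.0 kb) moved to 46.3 and 66.1 kb with only the better-scoring peaks, above the median score of a list, and to 49.7 and 64.8 kb in a window narrowed by 100 kb at both ends. Leaving out 1 list gave 55.7 to 64.2 peaks and 71.2 to 74.6 kb. The gained count of 34 ranged from 25 with the better-scoring peaks to 49 with calls in at least 2 of 3 lists, where the share over all BRD9 regions was 12.6%. It was 34 to 44 without 1 list, and no region was lost under any setting. With a replicate block there were 49 gained and 0 lost regions; lists with the same number showed no shared deviation to speak of (correlations 0.0105, 0.00692 and 0.00162), so the numbers were not taken as pairs. Regions called in every list were 0 to 1 without 1 list; the 1, over the 3′ part of KLF6, appeared without GFP replicate 2. All 8 densest gained regions stayed gained under each alternative tried for them. Leaving out a GFP list, calls in at least 2 of 3 lists and the replicate block cannot remove a gained region, so these settings did not test this. Leaving out a list of SMARCB1-induced cells loosens the call rule. The score, peak number, merging and overlap settings could have removed one. With SMARCB1 peaks of either replicate there were 105 SMARCB1 regions and 91.1% of BRD9 regions overlapped one; a single SMARCB1 list gave 88 to 100 regions, and leaving out 1 list of either protein gave shares of 83.5 to 89.9%. As ratios to the control, another quantity, the leading region had 8.36 for BRD9 and 12.5 for SMARCB1. The cause was not tested. BRD9 peaks of the window held a median of 34 to 38 reads after SMARCB1 induction, and places under the authors' calling threshold have no reads in these files.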
